A study of Mus musculus with 24 samples.

Results

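The genes described here make cholesterol, control its synthesis, move it inside the cell and export it. They are 30 genes of a read-count table of 35275 genes, picked by gene name, with no threshold on a measured value: 20 genes of synthesis enzymes, 4 genes that control the transcription factor Srebp2, 3 genes of transport, esterification and receptor turnover, and 3 genes of efflux. All 30 were counted, and all 30 passed the filter on low counts in every comparison.

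RNA-seq was performed on livers of male C57BL/6 mice, 8 to 10 weeks old, fed chow and fasted for 24 h before the tissue was taken. There were 24 libraries, 4 in each of 6 groups. Control mice carried floxed Tsc1 and Cpt2 without Cre and are called wild type in the labels. Tsc1 L-/- mice lacked Tsc1, a brake on mTorc1, in liver, and Cpt2 L-/- mice lacked Cpt2, which mitochondria need to oxidize long-chain fatty acids. Double-KO (DKO) mice, labelled Tsc1Cpt2 L-/-, lacked both. The liver deletions were made with Cre driven by the albumin promoter, which acts in hepatocytes and spares the other cells of the liver. Ppara KO mice lacked the nuclear receptor Pparα, and Cpt2 L-/- Ppara KO mice lacked Cpt2 in liver together with Ppara. The cells in which Ppara was deleted are not given in the sources used here, and neither are the littermate controls of the Ppara KO groups, so Ppara KO was compared with the same 4 control libraries, and Cpt2 L-/- Ppara KO with Cpt2 L-/- and Ppara KO livers. The comparisons asked what loss of fatty acid oxidation, activation of mTorc1 or loss of Pparα did to these genes in the fasted liver.

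Cholesterol is built from acetyl-CoA through mevalonate, isoprenoids, squalene and lanosterol. The enzymes are under common control: Srebp2, the product of Srebf2, travels with its escort Scap from the endoplasmic reticulum to the Golgi when sterols are low, is cut there and turns on the genes of the pathway. Insig1 and Insig2 hold the complex back when sterols are plentiful, and Insig1 is itself a target of Srebp2. In the fasted liver the pathway is known to be turned down.

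Total counts per library ranged from 14470968 to 20371204, and no library was a copy of another in its own group (36 pairs). Pairs across groups were not checked for copies. Tsc1 was at 36.8 to 39.9 CPM (counts scaled to library size) in the control group, at 18.0 to 28.6 CPM in Tsc1 L-/- and at 15.5 to 18.1 CPM in DKO livers. Ppara was at 213 to 276 CPM in the control group, at 13.0 to 45.2 CPM in Ppara KO and at 26.2 to 91.9 CPM in Cpt2 L-/- Ppara KO livers. Gene-level counts of Cpt2 did not check the labels of that deletion, since they were at 80.3 to 105 CPM in Cpt2 L-/- and at 87.8 to 104 CPM in control livers. Cpt2 L-/- Ppara KO replicate 1 stood apart from its group, with Cpt2 at 126 against 31.7 to 39.1 CPM, Ppara at 91.9 against 26.2 to 46.2 CPM and Tsc1 at 24.3 against 42.4 to 50.6 CPM. Ppara KO replicate 1 had Cpt2 at 96.1 against 38.0 to 50.9 CPM in the rest of its group. The libraries also fell into 2 sets of 12 by 2 genes chosen after their values were seen: Cd1d2 and Rps3a3 were at 11.2 to 60.7 and 33.2 to 96.1 CPM in control, Tsc1 L-/- and DKO livers, and at 0.0696 to 0.828 and 0.206 to 3.48 CPM in the other 3 groups. Comparisons of Cpt2 L-/- or Ppara KO with control, of DKO with Cpt2 L-/-, and both interactions cross these sets, so that the genotype and whatever separates the sets cannot be told apart in them. Tsc1 L-/- or DKO against control, DKO against Tsc1 L-/-, and both comparisons of Cpt2 L-/- Ppara KO stay within 1 set.

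The tissue label was checked against 5 hepatocyte markers (Alb, Ttr, Cps1, Tat and Hnf4a), which were present in every group. Their summed level was 47989 to 64402 CPM in control, 31811 to 55294 in Tsc1 L-/-, 26734 to 46418 in Cpt2 L-/-, 17525 to 24345 in DKO, 46909 to 70916 in Ppara KO and 30414 to 47949.8 CPM in Cpt2 L-/- Ppara KO livers. The DKO group was the lowest and did not overlap with any other, and 2 of the 5 markers fell in DKO against control. Of the stellate cell markers 5 of 6, of the Kupffer cell and macrophage markers 4 of 5 tested and of the endothelial markers 3 of 5 also fell in DKO livers, and the other macrophage marker tested rose. Stellate markers summed to 123 to 174 CPM in control, 80.8 to 107 CPM in Cpt2 L-/- and 59.8 to 87.8 CPM in DKO livers. Ly6g, which defines neutrophils, was at or under 3 counts in every library. In tissue RNA, fewer cells of a type and less RNA per cell cannot be told apart.

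Levels of different genes were compared on the deposited FPKM scale, which divides by gene length. In control livers the highest of the 30 was Insig2, at 88.2 ± 24.3 FPKM (SD, n = 4), followed by Sc5d at 84.1 ± 23.3 FPKM and Tm7sf2 at 80.3 ± 9.99 FPKM, which did not differ from it beyond their spread. Ggps1 was the lowest, at 1.83 ± 0.405 FPKM, with Lbr next at 2.82 ± 0.467 FPKM. Sc5d acts late in the conversion of lanosterol to cholesterol and Tm7sf2, a sterol reductase, early in it, Lbr carries the same sterol reductase activity as Tm7sf2 in the nuclear envelope, and Ggps1 leads away from sterols to geranylgeranyl groups. Of the 20 enzyme genes, 8 had their highest group mean in control and 8 their lowest in Cpt2 L-/- livers. The control means lean on control replicate 2, the highest control library in 17 of the 20 by CPM. The count of highest means is not given without it. Idi1 ranged most among the enzymes, from 8.98 ± 7.66 FPKM in control to 1.16 ± 0.141 FPKM in Cpt2 L-/- livers, and Lss least, from 4.90 ± 2.57 FPKM in Cpt2 L-/- Ppara KO to 3.34 ± 1.48 FPKM in Tsc1 L-/- livers.

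Promoters were available for 25 of the 30 genes, from RefSeq on build GRCm38.p6, and the 250 bases before each start were searched on both strands. Those of Fdps, Fdft1, Sqle, Stard4 and Soat2 were missing. The core of the sterol regulatory element, TCACNCCAC, was found in 1 of the 25 genes, Hmgcs1, and in 1.26% of 17637 genes of the table. CCAAT, the box bound by NF-Y, was found in 21 of 25 genes and in 38.9% of all genes. GGGCGG, the box bound by Sp1, was likewise found in 21 of 25 genes and in 45.5% of all genes. None of the 3 motifs contains another, and a gene with several start sites counted once. A match is a description, not a binding site, and the lack of a match does not show that a site is absent. The stretches printed here are those of Hmgcs1, the one match to the sterol element, and of Insig1 and Insig2, whose transcripts moved in opposite directions. Each runs 5′ to 3′ on the strand of its gene, with the matches to any of the 3 motifs, on either strand, in capitals. The Hmgcs1 stretch is chr13:119690101-119690350 on the plus strand, ends at the base before the start site and holds the sterol element core, 3 CCAAT and 2 GGGCGG boxes. The Insig1 stretch is chr5:28071162-28071362 on the plus strand, ends where the first annotated exon begins and holds 1 CCAAT and 3 GGGCGG boxes. The Insig2 stretch is chr1:121332590-121332839 on the minus strand, lies before the most upstream of its 3 RefSeq start sites and holds 3 CCAAT and no GGGCGG box, while GGGCGG lies before its other start sites. All 3 stretches lie outside annotated exons.
Hmgcs1: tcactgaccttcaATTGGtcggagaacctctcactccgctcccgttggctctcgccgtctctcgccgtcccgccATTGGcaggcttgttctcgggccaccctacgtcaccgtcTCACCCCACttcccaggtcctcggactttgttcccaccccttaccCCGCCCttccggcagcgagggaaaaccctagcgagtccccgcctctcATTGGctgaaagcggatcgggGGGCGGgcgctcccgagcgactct
Insig1: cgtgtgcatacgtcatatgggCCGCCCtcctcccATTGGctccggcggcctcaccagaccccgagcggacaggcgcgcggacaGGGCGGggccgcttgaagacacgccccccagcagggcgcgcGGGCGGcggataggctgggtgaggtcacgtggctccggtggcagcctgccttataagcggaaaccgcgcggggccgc
Insig2: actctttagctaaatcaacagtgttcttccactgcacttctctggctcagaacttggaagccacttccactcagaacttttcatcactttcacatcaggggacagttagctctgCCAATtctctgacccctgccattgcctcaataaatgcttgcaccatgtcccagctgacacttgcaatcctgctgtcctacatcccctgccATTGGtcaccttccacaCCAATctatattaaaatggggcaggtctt

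The 4 control livers differed widely from each other in these genes. Sqle, squalene epoxidase and a rate-limiting enzyme of the pathway, was at 4.46, 138, 18.1 and 47.6 CPM in control replicates 1 to 4. Control replicate 2 was the highest of the 4 in 17 of the 20 enzyme genes and control replicate 1 the lowest in 16 of 20. The summed level of the 20 genes was 758 CPM in control replicate 1, 2528 CPM in replicate 2, 985 CPM in replicate 3 and 1509.6 CPM in replicate 4. The median SD of log2 CPM over the 20 genes was 0.83 in control, 0.45 in Tsc1 L-/-, 0.18 in Cpt2 L-/-, 0.33 in DKO, 0.36 in Ppara KO and 0.34 in Cpt2 L-/- Ppara KO livers. Over 13859 tested genes the median SD was 0.23 in control and 0.25 in Cpt2 L-/- livers, so the spread of the control group lay in these genes more than in others.

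**Figure D1:**
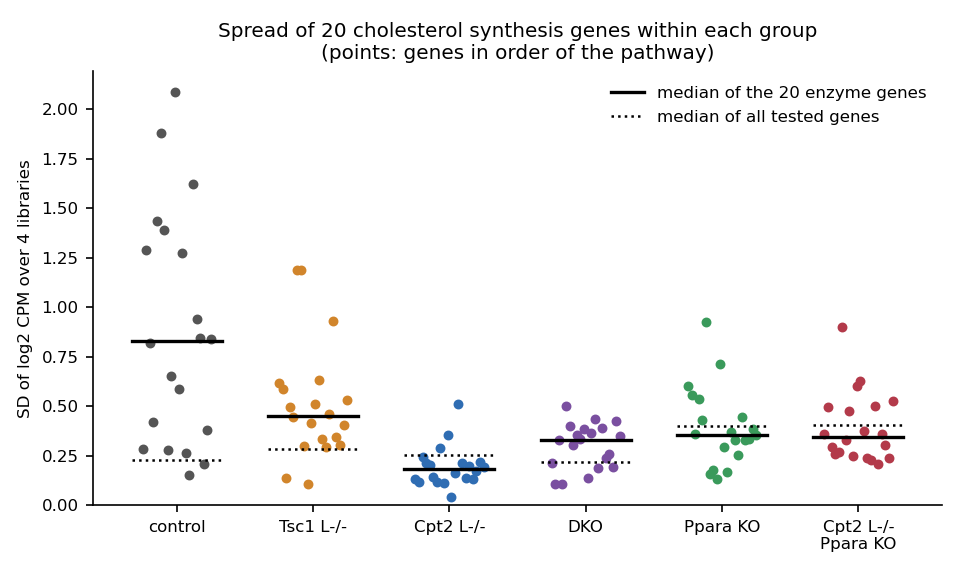
Standard deviation of log2 CPM over the 4 libraries of each group (vertical axis) for 20 genes of cholesterol synthesis (points, in pathway order), with their median (solid bar) and the median of all tested genes (dotted bar). The control group has a median of 0.83 and the Cpt2 L-/- group a median of 0.18.

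Tsc1 L-/- replicate 3 also stood apart. Fdps, which makes farnesyl diphosphate, was at 323 CPM there and at 54.5 to 86.7 CPM in the other Tsc1 L-/- livers, and Insig1 was at 290.2 against 77.8 to 131 CPM. This library was the highest of its group in 14 of the 20 enzyme genes. Srebf1, the gene of the related factor Srebp1 that drives fatty acid synthesis, was at 331 CPM in it and at 23.4 to 40.9 CPM in the other 3 livers of the group.

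Most of the enzyme genes rose and fell together between libraries of 1 group. Over deviations from the group means in 24 libraries, the median Pearson r was 0.50 over 190 pairs of enzyme genes, of which 165 pairs were above 0, and the median r of the enzyme genes with 13829 other genes was -0.0035. Without the 4 control libraries the median over the pairs was 0.25. Msmo1, the sterol methyl oxidase, had the highest median r with the enzyme genes, 0.73, and Tm7sf2 the lowest of the 20, 0.015. Ggps1, Ebp and Lbr were also low, at 0.062, 0.086 and 0.10. Outside the enzymes, Stard4, a sterol carrier and Srebp2 target, had a median r of 0.60 with them and Insig1 one of 0.55, while that of Insig2 was -0.24. The points share library and depth, and these values are descriptions without a test.

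**Figure D2:**
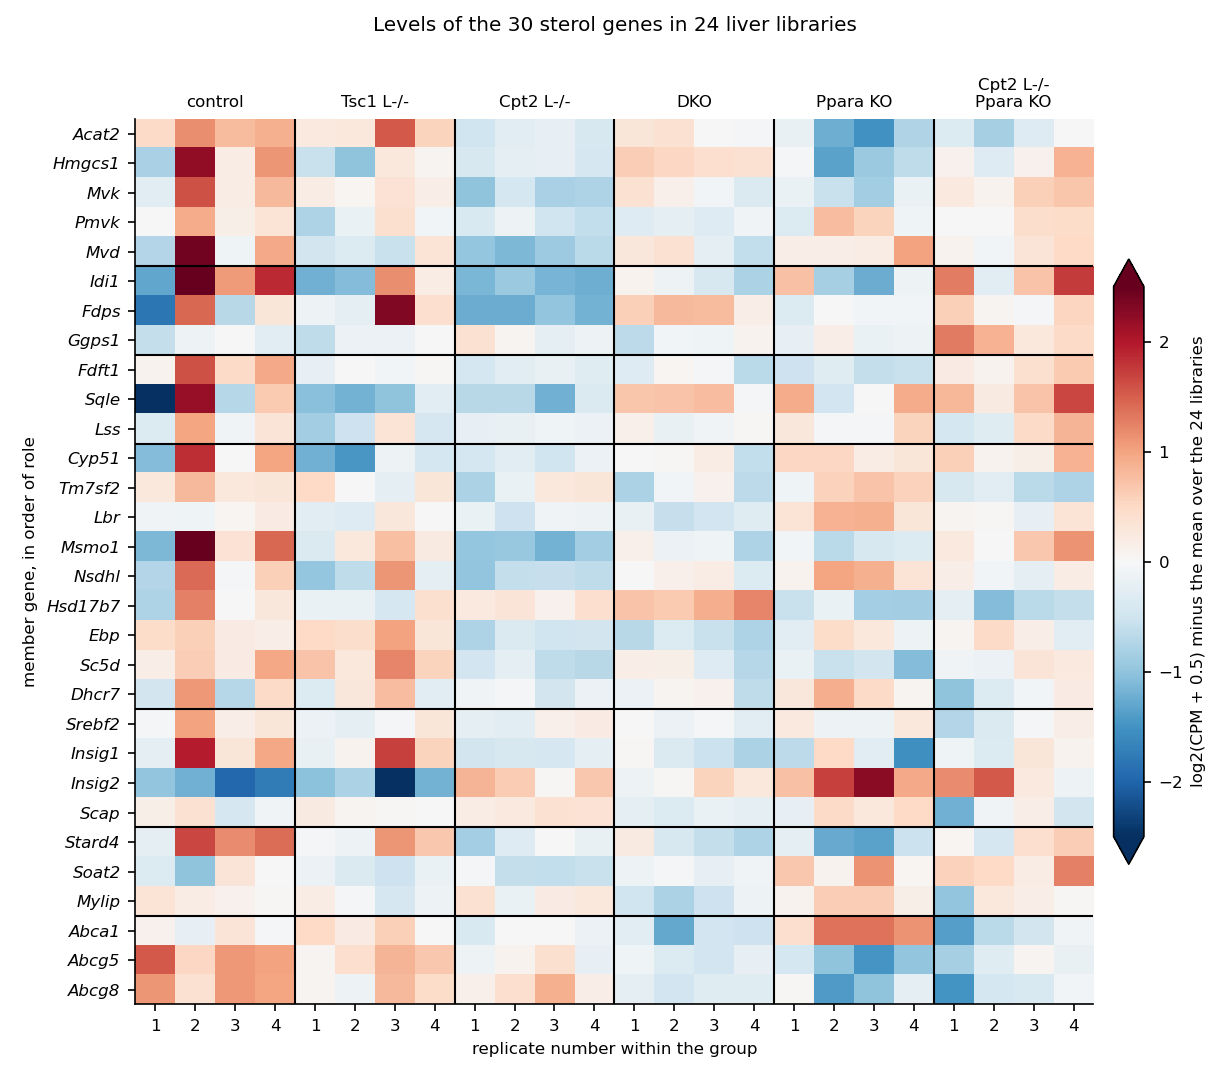
Levels of the 30 genes (rows, grouped by role from synthesis at the top to efflux at the bottom) in the 24 libraries (columns, by group), as log2(CPM + 0.5) minus the gene's mean over all libraries. Red is above and blue below that mean. Control replicate 2 is red and control replicate 1 blue over much of the synthesis block, Cpt2 L-/- livers are blue there, and Insig2 is blue in control and Tsc1 L-/- livers and mostly red in the other 4 groups.

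In livers that lacked Tsc1 alone, 1 of the 30 genes passed the threshold. Fdft1, squalene synthase, was at 56.1, 160.1, 73.4 and 102 CPM in control and at 45.3, 52.1, 50.3 and 53.8 CPM in Tsc1 L-/- livers. The groups did not overlap. Fdft1 was 1.95-fold lower, a log2 fold change of -0.96 ± 0.24 (SE; edgeR quasi-likelihood test, Benjamini-Hochberg adjusted p = 0.0239; 0.00219 to 0.103 over 14 alternatives). Without control replicate 2 its adjusted p was 0.0575. No member rose, against 4.16% of all tested genes, and 1 of 30 fell, against 2.48%. The median log2 fold change was -0.44 over the 30 genes and 0.0068 over all genes. Idi1, the isomerase that makes dimethylallyl diphosphate, had the most negative estimate, -1.75, and Fdps the most positive, 0.75, and neither passed the test. The estimate of Idi1 was -0.95 without control replicate 2, and without Tsc1 L-/- replicate 3 that of Fdps was -0.23. The call of Fdft1 was also lost without control replicate 4 or Tsc1 L-/- replicates 1 or 2, and others turned on single livers: without control replicate 1, 6 members were called, with Cyp51, Hmgcs1, Idi1, Mvd and Sqle joining as lower, and without Tsc1 L-/- replicate 3 there were 3, with Abcg8 and Lss joining.

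Loss of Cpt2 alone was followed by lower levels along the synthesis pathway. Of the 30 genes 13 fell, against 14.9% of all tested genes, and 1 rose, against 16.2%. The median log2 fold change was -0.98 over the 30 genes, -1.21 over the 20 enzymes and -0.016 over all genes, and 27 of the 30 estimates were below 0. All 5 genes from acetoacetyl-CoA to isopentenyl diphosphate fell, as did 1 of 3 isoprenoid genes, 1 of 3 from farnesyl diphosphate to lanosterol and 3 of 9 from lanosterol to cholesterol. The summed hepatocyte and stellate markers were also lower in every Cpt2 L-/- than in any control liver, with 1 of 5 hepatocyte and 3 of 6 stellate markers called as lower, and their part in these falls was not tested.

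The 5 early genes encode Acat2, the cytosolic thiolase, Hmgcs1, the HMG-CoA synthase, and the mevalonate pathway enzymes Mvk, Pmvk and Mvd. Acat2 was at 27.5, 44.4, 34.6 and 36.8 CPM in control and at 13.7, 16.1, 17.0 and 14.8 CPM in Cpt2 L-/- livers. Mvk was at 9.39, 35.1, 13.0 and 20.2 CPM in control and at 5.39, 8.18, 6.26 and 6.48 CPM in Cpt2 L-/- livers. Neither gene overlapped between the groups, with log2 fold changes of -1.24 and -1.59. Pmvk, at -0.84, did not overlap either. The share of all tested genes without overlap in this comparison is not given here. Hmgcs1, at -1.43, overlapped because control replicate 1 lay below the Cpt2 L-/- livers, with 52.6, 429, 105 and 199 CPM in control and 68.7 to 80.1 CPM in Cpt2 L-/- livers. Its call was lost in 9 of 14 alternatives. Without control replicate 2 the log2 fold change was -0.67 and the adjusted p 0.176, without control replicate 4 the adjusted p was 0.0715, and without any 1 of the 4 Cpt2 L-/- livers it was 0.0689 to 0.0899. The other losses were with no filter, with the replicate block and in the fit of 2 groups.

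The largest falls were those of Idi1, Msmo1 and Mvd. Idi1 was at 2.97, 66.5, 17.3 and 30.5 CPM in control and at 3.36, 3.99, 3.31 and 3.18 CPM in Cpt2 L-/- livers. Control replicate 1 lay below the Cpt2 L-/- livers and the other 3 control livers above all of them. Idi1 was 8.59-fold lower (log2 fold change -3.10 ± 0.77 SE, edgeR adjusted p = 0.00843, 0.000114 to 0.0331 over the alternatives), and 4.83-fold lower without control replicate 2. Msmo1 was at 19.97, 285, 56.9 and 120.2 CPM in control and at 22.3, 22.6, 19.0 and 23.8 CPM in Cpt2 L-/- livers. It too overlapped through control replicate 1 and was 5.59-fold lower (log2 fold change -2.48 ± 0.60 SE, edgeR adjusted p = 0.00708, 0.000108 to 0.0505), or 2.97-fold without control replicate 2. Mvd, the mevalonate diphosphate decarboxylase, was at 3.21, 32.4, 5.19 and 11.4 CPM in control and at 2.67, 2.35, 2.78 and 3.35 CPM in Cpt2 L-/- livers. It was 4.74-fold lower (log2 fold change -2.24 ± 0.57 SE, edgeR adjusted p = 0.00817, 0.00059 to 0.0488), again with control replicate 1 alone inside the range of the other group, and 2.35-fold lower without control replicate 2.

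Ebp, Sc5d and Fdft1 fell as well. Ebp, the sterol isomerase, was at 132, 146, 111 and 108 CPM in control and at 56.3, 74.5, 67.5 and 70.1 CPM in Cpt2 L-/- livers. Sc5d, the sterol C5 desaturase, was at 153, 209.5, 158 and 267 CPM in control and at 98.8, 118, 87.6 and 84.3 CPM in Cpt2 L-/- livers. Fdft1 was at 38.4, 43.6, 46.1 and 42.3 CPM in Cpt2 L-/- livers, below every control liver. The log2 fold changes were -0.92 for Ebp, -1.04 for Sc5d and -1.23 for Fdft1. None of the 3 genes overlapped between the groups, again without a share of all tested genes to set beside them. Sqle, Cyp51, Nsdhl and Fdps had estimates of -1.55, -1.19, -1.28 and -1.47 that did not pass the test. Without control replicate 1, Sqle, Cyp51, Nsdhl and Srebf2 passed it, and the count of members called was 18. Without control replicate 2 the count was 14, with 2 higher and 12 lower, against 1 higher and 13 lower with all libraries. Estimates that did not pass were smaller without control replicate 2, at -0.35 for Sqle, -0.52 for Cyp51, -0.75 for Nsdhl and -0.67 for Fdps.

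Among the genes that control Srebp2, Insig2 rose and Insig1 fell, the call of Insig1 being the weaker. Insig2 was at 339, 292, 170.3 and 199 CPM in control and at 1214, 1040.4, 683 and 1072 CPM in Cpt2 L-/- livers. Every Cpt2 L-/- liver was above every control liver. Insig2 was 3.93-fold higher (log2 fold change 1.97 ± 0.32 SE, edgeR adjusted p = 0.000261, 1.18e-09 to 0.00135 over the alternatives). Insig1 was at 74.3, 347, 109.8 and 173 CPM in control and at 64.3, 66.7, 66.1 and 75.0 CPM in Cpt2 L-/- livers, a log2 fold change of -1.40. The call of Insig1 was lost in 8 of 14 alternatives: without control replicate 2, when the log2 fold change was -0.80 and the adjusted p 0.151, without control replicate 4 or any 1 of the 4 Cpt2 L-/- livers, with the replicate block and with no filter. Srebf2 and Scap had estimates of -0.49 and 0.23 that did not pass the test. Stard4 fell, with a log2 fold change of -1.51, and so did Abcg5, at -1.05, which pairs with Abcg8 to export sterols into bile. Abcg8 itself, at -0.51, and Abca1, at -0.22, which loads cholesterol onto apolipoprotein A-I, did not pass the test.

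**Figure D3:**
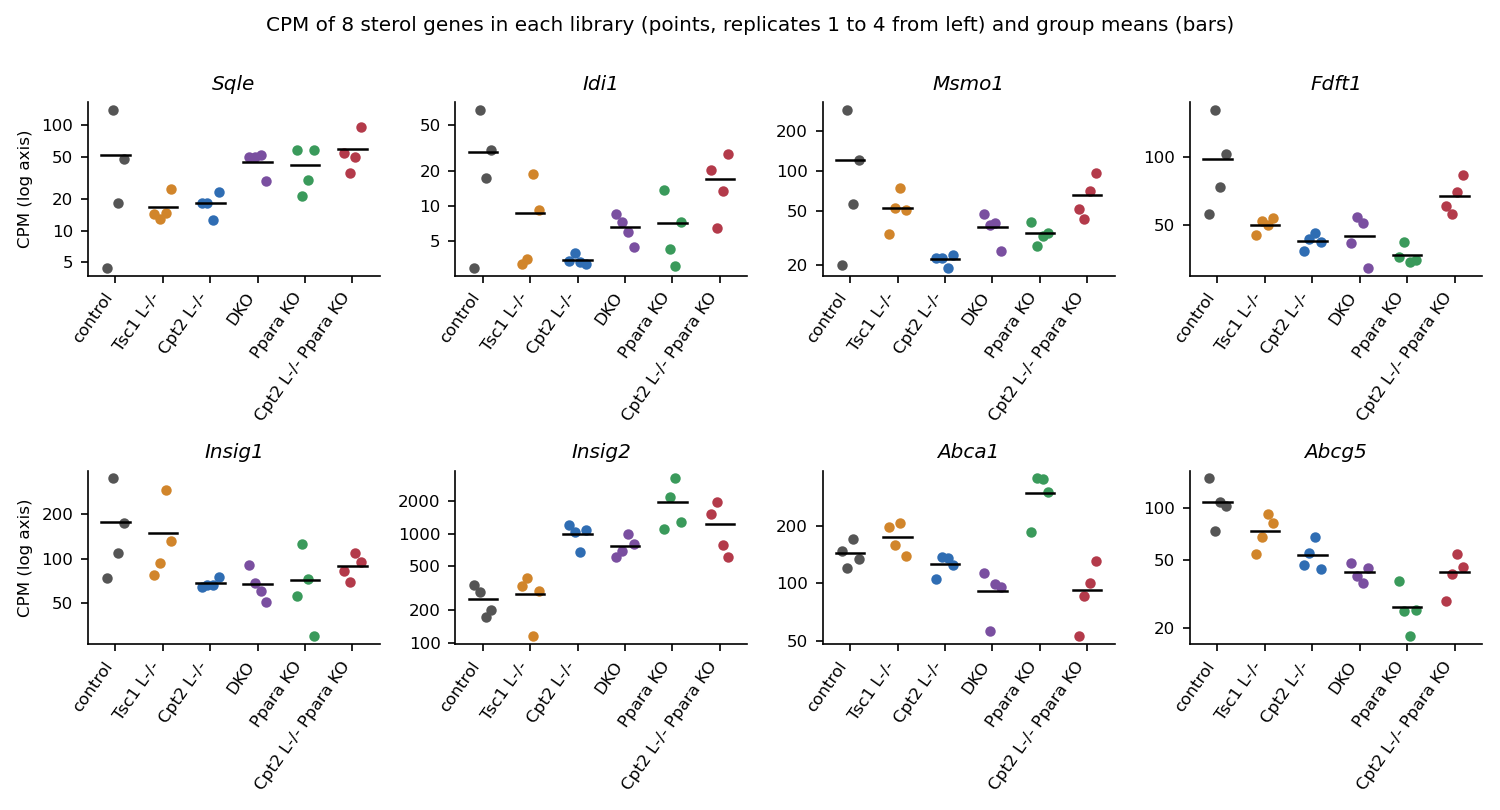
CPM on a log axis of 8 genes in each library (points, replicates 1 to 4 from left to right within each group), with the group mean as a bar. The 4 control livers span 4.46 to 138 CPM for Sqle, Cpt2 L-/- livers lie close together for Idi1 and Msmo1, and Insig2 is at 609.9 CPM or more in every liver of the 4 groups to the right of Tsc1 L-/-.

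Livers that lacked both Tsc1 and Cpt2 also had lower levels of many of the genes, against the same 4 control livers. In DKO livers 16 of 30 genes fell, against 17.1% of all tested genes, and 1 rose, against 19.3%. The median log2 fold change was -0.66 over the 30 genes and 0.017 over all genes. This comparison lies within 1 of the 2 sets of libraries. The calls included 9 of the 20 enzyme genes, all of them lower, among them Lbr, at -0.43, which was called in 5 of 14 alternatives. Without control replicate 2 the count fell from 17 to 9, without control replicate 4 to 11 and without DKO replicates 2, 3 or 4 to 11, 10 or 9. The calls without control replicate 2 were 2 higher and 7 lower, against 1 higher and 16 lower with all libraries. The members called under all 14 alternatives were Insig2, Abca1, Fdft1, Abcg8, Stard4, Ebp, Mylip and Abcg5.

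All 3 efflux genes fell in DKO livers. Abcg5 was at 149, 73.8, 109 and 103 CPM in control and at 47.8, 40.3, 36.7 and 44.8 CPM in DKO livers. Abcg8 was at 153, 92.5, 149.9 and 141 CPM in control and at 59.4, 50.6, 57.6 and 57.7 CPM in DKO livers. Abca1 was at 149, 121, 173 and 134 CPM in control and at 113, 56.5, 99.8 and 96.4 CPM in DKO livers. All 3 efflux genes were lower in every DKO liver than in any control liver, as were 16.3% of all tested genes, with log2 fold changes of -1.37, -1.26 and -0.67. The annotated spans of Abcg5 (chr17:84658234-84683011, minus strand) and Abcg8 (chr17:84676302-84700333, plus strand) overlap on GRCm38. The strand setting of the counting is not given in the sources used here, so reads of the shared stretch could be counted for either gene. Mylip, a ubiquitin ligase that removes the receptors for low-density lipoprotein, was at 25.7 to 31.9 CPM in control and at 14.3 to 23.0 CPM in DKO livers, a log2 fold change of -0.66. The summed hepatocyte markers were lowest in the same DKO livers, and their part in these falls was not tested.

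The largest falls in DKO livers were those of Idi1, Msmo1 and Stard4. Idi1 was at 8.56, 7.35, 6.00 and 4.44 CPM in DKO livers and 4.46-fold lower than in control (log2 fold change -2.16 ± 0.73 SE, edgeR adjusted p = 0.035, 0.00475 to 0.134 over the alternatives). Msmo1 was at 48.2, 39.5, 40.9 and 25.5 CPM and 3.14-fold lower (log2 fold change -1.65 ± 0.58 SE, edgeR adjusted p = 0.0406, 0.00336 to 0.198). For both, control replicate 1 lay below every DKO liver and the other 3 control livers above them all. Both lost their calls without control replicates 2 or 4 or any 1 of the 4 DKO livers. Without control replicate 2 they were 2.55-fold and 1.70-fold lower. Stard4 was at 33.9, 129, 91.5 and 107 CPM in control and at 47.0, 30.1, 26.3 and 23.2 CPM in DKO livers. It was 2.87-fold lower (log2 fold change -1.52 ± 0.39 SE, edgeR adjusted p = 0.0074, 5.16e-05 to 0.027). Insig2 was at 609.9, 688, 991 and 805 CPM, above every control liver, and 3.07-fold higher (log2 fold change 1.62 ± 0.32 SE, edgeR adjusted p = 0.00102, 1.15e-06 to 0.00478). Insig1 had a log2 fold change of -1.39 and Srebf2 one of -0.55, calls lost in 8 and in 3 of the 14 alternatives.

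**Figure D4:**
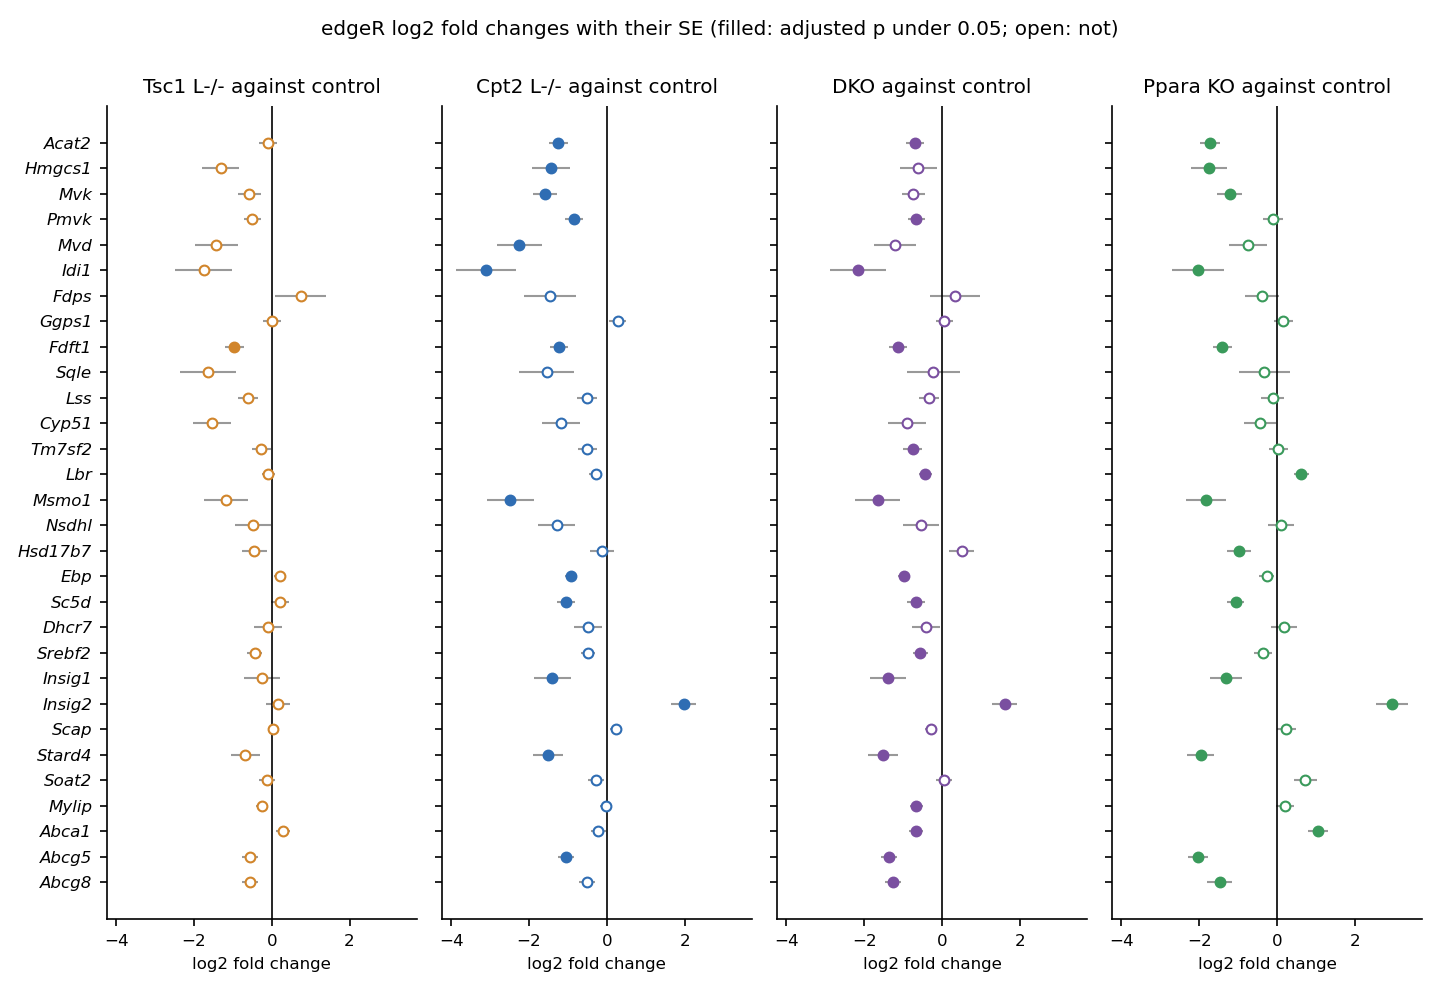
Log2 fold changes (horizontal axis, with SE as bars) of the 30 genes in 4 groups against the same 4 control livers. Filled points passed the threshold and open points did not. Insig2 is the gene farthest to the right in Cpt2 L-/-, DKO and Ppara KO livers, and Idi1 the farthest to the left in Cpt2 L-/- livers, at -3.10.

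Scap, Mylip and Abcg8 were lower in DKO than in Cpt2 L-/- livers, calls that were all lost in the fit of 24 libraries, with adjusted p-values of 0.131, 0.0662 and 0.106 by edgeR. Against Cpt2 L-/- livers, none of the 30 genes rose in DKO livers in the edgeR test, against 10.9% of all tested genes, and 3 fell, against 7.4%. At an unadjusted p under 0.05, 3 were higher, Acat2, Mvk and Fdps, against 17.7% of all genes. DESeq2 called 5 members in all, with Mvk and Fdps added as higher, against 11.2% of all genes. The fall of Abcg8 was 1.68-fold (log2 fold change -0.75 ± 0.21 SE, edgeR adjusted p = 0.0208, 0.00484 to 0.106), and its adjusted p was 0.069 without Cpt2 L-/- replicate 3 and 0.0694 without DKO replicate 2. Mylip was 1.56-fold lower (log2 fold change -0.64 ± 0.16 SE, edgeR adjusted p = 0.00983, 0.00194 to 0.0662). Scap, the escort of Srebp2, was at 181, 189.7, 207 and 207 CPM in Cpt2 L-/- and at 134, 127, 142 and 137 CPM in DKO livers. These groups did not overlap, and Scap was 1.43-fold lower (log2 fold change -0.52 ± 0.14 SE, edgeR adjusted p = 0.0133, 0.00235 to 0.131).

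Of the 20 enzyme genes, 10 separated DKO from Cpt2 L-/- livers without passing that test. Every DKO liver was above every Cpt2 L-/- liver in these, as in 12.9% of all tested genes: Acat2, Hmgcs1, Mvk, Mvd, Idi1, Fdps, Sqle, Msmo1, Nsdhl and Hsd17b7. Fdps was at 26.9, 27.2, 32.1 and 28.2 CPM in Cpt2 L-/- and at 97.5, 114, 112 and 72.6 CPM in DKO livers, a log2 fold change of 1.81 ± 0.67 (SE; edgeR adjusted p = 0.0793). Sqle was at 18.3, 18.4, 12.7 and 23.2 CPM in Cpt2 L-/- and at 49.2, 49.4, 51.5 and 29.4 CPM in DKO livers, with an estimate of 1.32. In a fit of the Cpt2 L-/- and DKO livers alone, which leaves out the control and Tsc1 L-/- livers from the estimate of spread, 13 members were called. These 10 were called as higher, against 11.4% of all genes in that fit, and 3 as lower, against 8.89%. The comparison crosses the 2 sets of libraries.

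Against Tsc1 L-/- livers, 2 of 30 genes rose in DKO livers, against 16.9% of all tested genes, and 5 fell, against 15.2%. The share that rose was below that of all genes, and the share that fell was near it. Insig2 was at 328, 387, 115 and 297 CPM in Tsc1 L-/- livers, below every DKO liver, and 2.73-fold higher in DKO (log2 fold change 1.45 ± 0.32 SE, edgeR adjusted p = 0.0024, 1.74e-05 to 0.0111). Ebp was at 136, 131, 193 and 119 CPM in Tsc1 L-/- and at 59.3, 75.7, 65.1 and 55.9 CPM in DKO livers. The groups were far apart, and Ebp was 2.27-fold lower (log2 fold change -1.18 ± 0.15 SE, edgeR adjusted p = 1.93e-05, 1.58e-11 to 0.00044). Abca1 was at 197, 159, 209 and 139 CPM in Tsc1 L-/- livers and 1.94-fold lower in DKO (log2 fold change -0.95 ± 0.18 SE, edgeR adjusted p = 0.000713, 1.03e-05 to 0.00735). Sc5d was 1.84-fold lower (log2 fold change -0.88 ± 0.23 SE, edgeR adjusted p = 0.0077, 0.00093 to 0.0317). Abcg5 and Abcg8 fell too, so that all 3 efflux genes were lower in DKO than in Tsc1 L-/- livers, without overlap, as were 13.4% of all tested genes. Of the hepatocyte markers 2 of 5 were also lower. Of the 5 Kupffer cell and macrophage markers tested 3 were lower and 1 higher. The part of these markers in the falls was not tested. Without Tsc1 L-/- replicate 3 the call of Abcg8 was lost, with an adjusted p of 0.0723, as it was without DKO replicate 2, at 0.0527. Hsd17b7, a reductase of the sterol pathway, was at 72.9, 73.2, 61.3 and 108 CPM in Tsc1 L-/- and at 135, 129.7, 156 and 193 CPM in DKO livers. It was 1.93-fold higher (log2 fold change 0.95 ± 0.32 SE, edgeR adjusted p = 0.0318, 0.00393 to 0.0938), a call lost without Tsc1 L-/- replicates 1, 2 or 3 or DKO replicates 3 or 4.

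The interaction asks whether loss of Cpt2 acted differently with and without Tsc1. With edgeR no member passed the threshold in either direction, against 1.09% of all tested genes with a higher and 1.28% with a lower interaction. At an unadjusted p under 0.05 there were 10 higher and 2 lower members of 30, against 9.57% and 9.32% of all genes. DESeq2 called 5 members, Mvk, Hmgcs1, Mvd, Sqle and Fdft1, all as higher, against 2.52% of all genes. Those 5 also passed in edgeR without control replicate 1. Without Tsc1 L-/- replicate 3 the call was Acat2 alone and without control replicate 2 Scap alone. The estimate was 2.96 ± 0.999 (SE) for Sqle and 1.43 ± 0.43 (SE) for Mvk, and the median was 0.55 over the 30 genes and 0.0039 over all genes. Both were smaller without control replicate 2, at 1.77 for Sqle and 0.95 for Mvk.

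Ppara KO livers had lower levels of 8 of the 20 enzyme genes, 3 of the 5 early ones among them, and of 2 of the 3 efflux genes. Levels of Insig2 and Abca1 were higher. Against control, 12 of 30 genes fell in Ppara KO livers, against 13.2% of all tested genes, and 3 rose, against 15.9%. The median log2 fold change was -0.37 over the 30 genes and 0.014 over all genes. The lower genes included Acat2, Hmgcs1 and Mvk of the early pathway, with log2 fold changes of -1.72, -1.75 and -1.21, and Idi1, Fdft1, Msmo1, Hsd17b7 and Sc5d beyond it. Pmvk, Mvd, Fdps, Sqle, Cyp51, Nsdhl and Dhcr7 lay between -0.75 and 0.19 and did not pass the test. The log2 fold change was -1.01 for Hmgcs1 and -0.93 for Msmo1 without control replicate 2, and then those 7 estimates lay between 0.13 and 0.84. Acat2 was at 17.3, 8.21, 6.52 and 11.4 CPM in Ppara KO livers, below every control liver. Fdft1 was at 36.4, 42.3, 34.5 and 35.4 CPM, also below every control liver, with a log2 fold change of -1.40.

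The largest fall was that of Idi1, at 13.7, 4.29, 3.09 and 7.28 CPM, 4.11-fold below control (log2 fold change -2.04 ± 0.66 SE, edgeR adjusted p = 0.0302, 0.00372 to 0.149). Control replicate 1 lay below every Ppara KO liver and the other 3 control livers above them all, and Idi1 was 2.35-fold lower without control replicate 2. Without that library the calls of Idi1, Hmgcs1, Hsd17b7, Insig1, Lbr and Msmo1 were lost, leaving 9. Over the alternatives Abcg5 was at least 3.57-fold and Stard4 at least 3.32-fold lower, so the rank of Idi1 turned on control replicate 2. Abcg5 was at 37.5, 25.4, 18.1 and 25.5 CPM, 4.09-fold below control without overlap (log2 fold change -2.03 ± 0.26 SE, edgeR adjusted p = 3.08e-05, 6.88e-13 to 0.000638). Stard4 was at 33.6, 16.4, 15.5 and 27.6 CPM, 3.90-fold below control (log2 fold change -1.96 ± 0.35 SE, edgeR adjusted p = 0.000635, 7.66e-07 to 0.00584). The highest Ppara KO liver was just below the lowest control liver, at 33.9 CPM. Abcg8 fell as well, with a log2 fold change of -1.48.

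Insig2 reached its highest levels in Ppara KO livers, at 1114, 2192, 3215 and 1293 CPM. It was 7.77-fold above control without overlap (log2 fold change 2.96 ± 0.41 SE, edgeR adjusted p = 7.26e-05, 2.97e-13 to 0.000627). Abca1 was at 186, 357, 357 and 303 CPM, 2.08-fold above control and above each of its livers (log2 fold change 1.06 ± 0.25 SE, edgeR adjusted p = 0.00466, 0.000398 to 0.0183). Abca1 thus moved opposite to the other efflux genes. Lbr was at 13.0, 19.1, 19.2 and 12.7 CPM and 1.54-fold higher (log2 fold change 0.62 ± 0.19 SE, edgeR adjusted p = 0.0216, 0.0119 to 0.0767). Its call was lost without control replicates 1 or 2 or Ppara KO replicates 2 or 3. Cholangiocyte markers summed to 12.6 to 28.9 CPM in Ppara KO and to 4.74 to 9.86 CPM in control livers, and their part in these values was not tested.

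In livers without Ppara, Fdft1, Ggps1 and Stard4 rose and Abca1, Tm7sf2 and Lbr fell after loss of Cpt2, a share of the 30 genes near that of all genes. Against Ppara KO livers, 3 of 30 genes rose in Cpt2 L-/- Ppara KO livers, against 12.9% of all tested genes, and 3 fell, against 12.6%. The estimates were below 0 for 12 of the 30 genes, and for 7 of the 20 enzymes. Fdft1 was at 60.8, 56.0, 69.8 and 82.7 CPM, above every Ppara KO liver, and 1.79-fold higher (log2 fold change 0.84 ± 0.24 SE, edgeR adjusted p = 0.0208, 0.00796 to 0.0581), with an adjusted p of 0.0542 without Ppara KO replicate 3. Ggps1 was at 13.8, 10.2, 6.51 and 7.60 CPM against 4.57 to 6.02 CPM, and 1.86-fold higher (log2 fold change 0.90 ± 0.25 SE, edgeR adjusted p = 0.0175, 0.00563 to 0.0845), with an adjusted p of 0.0707 without Cpt2 L-/- Ppara KO replicate 1. Stard4 was 1.98-fold higher (log2 fold change 0.98 ± 0.34 SE, edgeR adjusted p = 0.0443, 0.025 to 0.123) and overlapped between the groups. Its call was lost without any 1 of Ppara KO replicates 2, 3 or 4 or of Cpt2 L-/- Ppara KO replicates 1, 3 or 4.

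The falls in this comparison were those of Abca1, Tm7sf2 and Lbr. Abca1 was at 52.9, 86.3, 101 and 131 CPM in Cpt2 L-/- Ppara KO livers, below every Ppara KO liver. It was 3.29-fold lower (log2 fold change -1.72 ± 0.26 SE, edgeR adjusted p = 0.00132, 1.21e-08 to 0.0397) and was the 1 member called under all 14 alternatives. Tm7sf2 was at 70.4, 78.3, 58.6 and 54.7 CPM against 86.8 to 154 CPM, 2.02-fold lower without overlap (log2 fold change -1.01 ± 0.24 SE, edgeR adjusted p = 0.00871, 0.000944 to 0.0574). Lbr had a log2 fold change of -0.60, a call lost without Ppara KO replicates 2 or 3 or Cpt2 L-/- Ppara KO replicates 1, 2 or 3. The count of members called was 10 without Ppara KO replicate 1, 3 without Ppara KO replicate 3 and 4 without Cpt2 L-/- Ppara KO replicate 1. Stellate markers summed to 44.1 to 82.6 CPM in Cpt2 L-/- Ppara KO and to 109 to 171 CPM in Ppara KO livers. Endothelial markers, at 133 to 229 against 247 to 285 CPM, and cholangiocyte markers, at 3.26 to 5.38 against 12.6 to 28.9 CPM, were also lower without overlap, and Kupffer cell and macrophage markers were higher, at 266 to 353 against 178 to 240.5 CPM. The part of these markers in the values of the 30 genes was not tested.

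Set against Cpt2 L-/- livers, those that also lacked Ppara had higher levels of several synthesis genes. Of 30 genes 7 rose, against 10.3% of all tested genes, and 1 fell, against 8.01%. All 3 isoprenoid genes were among those that rose. Idi1 was at 20.3, 6.54, 13.6 and 28.2 CPM in Cpt2 L-/- Ppara KO livers, above every Cpt2 L-/- liver, and 4.98-fold higher (log2 fold change 2.32 ± 0.69 SE, edgeR adjusted p = 0.0295, 0.00513 to 0.0956). Msmo1 was at 52.0, 43.9, 70.8 and 96.6 CPM and 3.01-fold higher (log2 fold change 1.59 ± 0.52 SE, edgeR adjusted p = 0.0441, 0.00361 to 0.13). Fdps was at 97.7, 67.8, 62.2 and 93.9 CPM and 2.82-fold higher (log2 fold change 1.49 ± 0.44 SE, edgeR adjusted p = 0.0279, 0.00147 to 0.0813). None of the 3 overlapped between the groups, and the share of all tested genes without overlap is not given for this comparison. Mvk, at 1.23, Ggps1, at 0.79, Ebp, at 0.66, and Soat2, at 1.12, which esterifies cholesterol, also rose, and Abcg8 fell by 0.94 on the log2 scale. These calls turned on single livers: 1 of 8, Mvk, was called without Cpt2 L-/- replicate 3 or without replicate 4, and the count was 3 to 5 without Cpt2 L-/- replicates 1 or 2 or Cpt2 L-/- Ppara KO replicates 1, 2 or 4. Mvk was called under all 14 alternatives. Without Cpt2 L-/- Ppara KO replicate 1, which stood apart in Cpt2, Ppara and Tsc1, the count was 3: Mvk, Ebp and Soat2. Erythroid markers summed to 355 to 825 CPM in Cpt2 L-/- Ppara KO and to 126 to 349 CPM in Cpt2 L-/- livers, with 2 of 3 called as higher, and their part in these values was not tested.

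The change after loss of Cpt2 differed with Ppara in 15 of the 30 genes. The interaction, the change from Ppara KO to Cpt2 L-/- Ppara KO livers minus the change from control to Cpt2 L-/- livers, was higher in 13, against 12% of all tested genes, and lower in 2, against 12%. Both interaction terms use the same control and Cpt2 L-/- livers, and this one crosses the 2 sets of libraries. All 10 enzyme genes called had a positive term. For Idi1 the change was -3.10 with and 1.24 without Ppara, an interaction of 4.35 ± 0.96 (SE; edgeR adjusted p = 0.0052, 0.000231 to 0.0221 over 21 alternatives), or 3.55 without control replicate 2. For Msmo1 the changes were -2.48 and 0.92, an interaction of 3.42 ± 0.74 (SE; edgeR adjusted p = 0.00474, 1.98e-05 to 0.0191), or 2.52 without control replicate 2. For Stard4 they were -1.51 and 0.98, an interaction of 2.49 ± 0.49 (SE; edgeR adjusted p = 0.00245, 2.14e-05 to 0.00743). The sign of the estimate turned from lower to higher in 12 of the 20 enzyme genes. Of these, Fdft1 alone was called as higher in livers without Ppara. The share of all tested genes with such a turn is not given here.

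The 2 genes with a negative term were Insig2 and Abca1. Insig2 rose by 1.97 on the log2 scale after loss of Cpt2 in the presence of Ppara, and in its absence, where it was already high, the estimate was -0.70, with 1529, 1950.1, 790.5 and 615 CPM in Cpt2 L-/- Ppara KO livers. The interaction was -2.67 ± 0.54 (SE; edgeR adjusted p = 0.00305, 1.45e-05 to 0.00861). Abca1 changed by -0.22 with and by -1.72 without Ppara, an interaction of -1.50 ± 0.35 (SE; edgeR adjusted p = 0.00679, 0.000513 to 0.0163). The 10 members called under all 21 alternatives were Insig2, Abca1, Fdft1, Acat2, Stard4, Msmo1, Sc5d, Abcg5, Mvk and Idi1. The control livers enter this term through the Cpt2 L-/- comparison, and without control replicate 1 the count was 17, with Cyp51 and Sqle joining. It was 12 without Cpt2 L-/- Ppara KO replicate 1 and 13 without Ppara KO replicate 1. The calls of Fdps, Mvd and Insig1 were lost in 15, 15 and 13 of the 21 alternatives, among them those without control replicate 2, without control replicate 4, without any 1 of the 4 Cpt2 L-/- livers and with no filter.

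**Figure D5:**
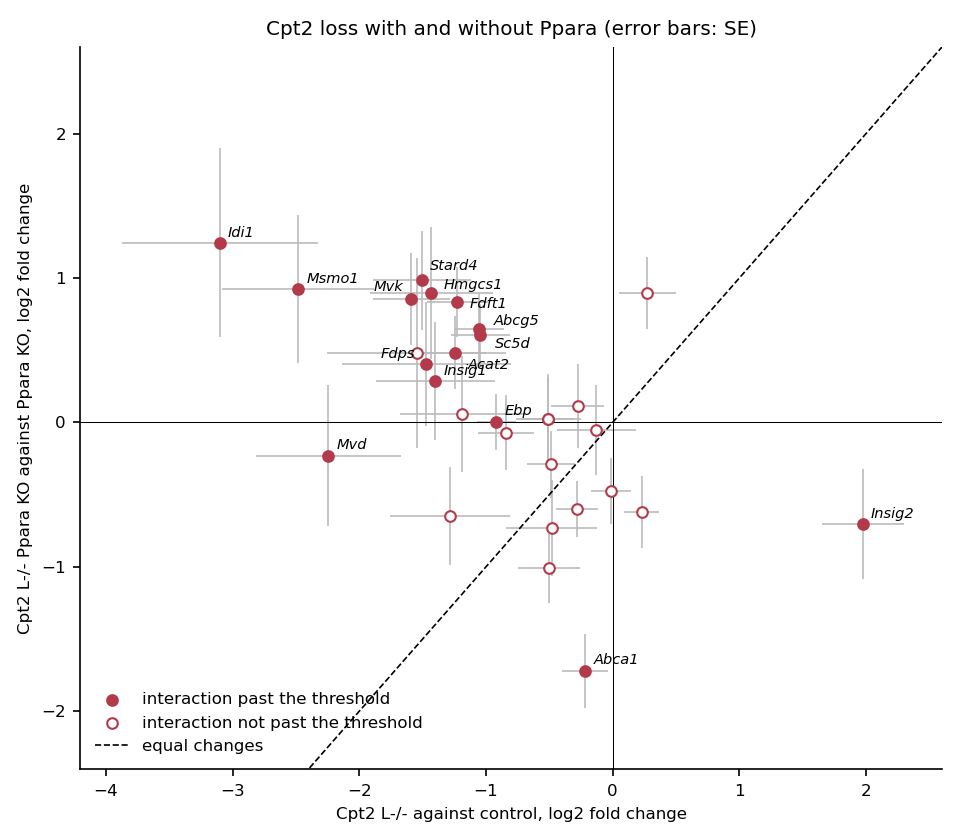
Log2 fold changes after loss of Cpt2 with Ppara (horizontal axis, Cpt2 L-/- against control) and without it (vertical axis, Cpt2 L-/- Ppara KO against Ppara KO) for the 30 genes, with SE as bars and the line of equal change dashed. Filled, named points passed the threshold for the interaction. Idi1 lies at -3.10 and 1.24, and Insig2 and Abca1 lie below the line.

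Across the 6 groups the 4 genes of Srebp2 control kept different patterns. Mean Insig2 was 88.2 ± 24.3 FPKM in control, 104 ± 40.1 in Tsc1 L-/-, 305 ± 57.6 in DKO, 378 ± 104 in Cpt2 L-/-, 440.0 ± 197 in Cpt2 L-/- Ppara KO and 679 ± 305 FPKM in Ppara KO livers (SD, n = 4). Control and Tsc1 L-/- did not differ beyond their spread, and neither did neighbors in the order from DKO to Ppara KO. Insig1 was highest in control, at 61.0 ± 37.1 FPKM, and in Tsc1 L-/-, at 57.1 ± 40.4 FPKM, and was at 24.7 ± 12.3 to 33.2 ± 8.04 FPKM in the other 4 groups. Mean Srebf2 stayed between 9.09 ± 3.17 and 13.0 ± 3.56 FPKM and Scap between 30.5 ± 11.1 and 46.8 ± 1.78 FPKM. The members called in no comparison were Sqle, Lss, Cyp51, Nsdhl and Dhcr7, with group means from 3.34 FPKM, of Lss in Tsc1 L-/-, to 24.2 FPKM, of Cyp51 in control livers.

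A further 25 genes of sterol uptake, storage and sensing were tested in the same fits. In Cpt2 L-/- against control 3 rose and 3 fell, against 16.2% and 14.9% of all tested genes. Lipa, the lysosomal acid lipase that frees cholesterol from its esters, rose by 1.31 on the log2 scale, and Scarb1, the receptor for high-density lipoprotein, fell by 1.02. In DKO against control 5 rose and 6 fell, against 19.3% and 17.1%, led by Lipa at 1.29 and Lrp1, an endocytic receptor, at -1.17. In Tsc1 L-/- 3 rose and none fell, against 4.16% and 2.48%, led by Rnf145 at 0.96. In Ppara KO 2 rose and 6 fell, against 15.9% and 13.2%, led by Osbp, an oxysterol-binding protein, at 1.10 and Aacs, which activates acetoacetate, at -1.37. DKO livers had 4 higher and 6 lower than Tsc1 L-/-, against 16.9% and 15.2%, led by Nceh1 at 1.53 and Scarb1 at -1.54. They had 4 higher and 2 lower than Cpt2 L-/-, against 10.9% and 7.4%, led by Rdh11 at 0.90 and Abcg1 at -0.75. Cpt2 L-/- Ppara KO livers had 2 higher and 6 lower than Cpt2 L-/-, against 10.3% and 8.01%, led by Gramd1c at 1.15 and Aacs at -1.51. They had 3 higher and 5 lower than Ppara KO, against 12.9% and 12.6%, led by Nceh1 at 0.85 and Lrp1 at -1.12. The interaction was called for Abcg1 alone with Tsc1, at -1.22, against 1.28% of all genes with a lower term, and for 2 higher genes and 1 lower gene with Ppara, against 12% each way, led by Scarb1 at 0.88 and Osbp at -1.05.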

How the data were processed

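Total RNA of 24 fasted mouse livers was extracted with TRIzol and made into stranded poly(A) libraries, sequenced as single reads. The authors deposited raw read counts per gene and FPKM values for 35275 genes. The submitters' processing notes name Bowtie 0.12.2, TopHat, STAR 2.5, STAR-Fusion, HTSeq 0.6.1, DESeq2 and edgeR. Their roles, the strand setting and the treatment of reads with several matches are not given in the sources used here. Gene coordinates in the table are those of GRCm38. Members were picked by gene name, and they and the gene lists were chosen with earlier results of these data known.

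Counts were tested with edgeR 4.0.16 in R 4.3.3 (TMM factors, filterByExpr with a minimum count of 10 and a minimum total of 15, robust quasi-likelihood test, Benjamini-Hochberg adjustment over all tested genes, threshold 0.05). One fit held control, Tsc1 L-/-, Cpt2 L-/- and DKO (13641 genes), the other control, Cpt2 L-/-, Ppara KO and Cpt2 L-/- Ppara KO (13615 genes). CPM used TMM factors over 24 libraries, and log2 CPM a prior count of 2. The deposited FPKM values compared levels between genes. Alternatives were RLE factors, no filter, DESeq2 1.42.0, all 24 libraries, the compared groups only, a replicate block and leaving out each library. The scripts were tested on simulated counts.

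Each comparison names, with fold change, SE and adjusted p, at most the 3 largest rises and 3 largest falls past the threshold, plus some others by fold change only. Per-library values of some other members, Fdps in DKO against Cpt2 L-/-, the Sqle and Mvk interaction estimates and Srebf1 were picked with their values in view. The labels do not say that the 4 libraries of a group came from separate animals, so p-values measure the spread between these samples. The ranges beside adjusted p-values are over the alternatives. The share of all tested genes whose groups do not overlap is given for DKO comparisons only, so non-overlap elsewhere describes single genes. Some genes of the marker and sterol lists are not reported here.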

Additional observations from a re-analysis of the deposited data

Results flagged for a closer look

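In 180 sets of 4 libraries (30 genes in 6 groups), 7 had 1 library far from the other 3 by Dixon's criterion for 4 values, and chance flags about 1 in 20 groups. Tsc1 L-/- replicate 3 was far above its group for Acat2, at 58.2 CPM, and for Fdps, at 323 CPM. Tm7sf2 was at 164 CPM in control replicate 2 and Soat2 at 53.0 CPM in Cpt2 L-/- replicate 1. Sqle was high in Tsc1 L-/- replicate 4, at 24.7 CPM, and low in DKO replicate 4, at 29.4 CPM. Mvd was at 11.8 CPM in Ppara KO replicate 4.

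The effect of losing Cpt2 differed between livers with and without Ppara in 15 genes, by the interaction term of the edgeR fit. The terms were 1.73 for Acat2, 2.33 for Hmgcs1, 2.45 for Mvk, 2.03 for Mvd, 4.35 for Idi1, 1.88 for Fdps, 2.07 for Fdft1, 3.42 for Msmo1, 0.93 for Ebp, 1.65 for Sc5d, 1.69 for Insig1, 2.49 for Stard4 and 1.70 for Abcg5 on the log2 scale. They were -2.67 for Insig2 and -1.50 for Abca1. Without control replicate 2 the terms were 1.03 for Mvd and 1.10 for Fdps, which lost their calls, and 1.59 for Hmgcs1, 2.52 for Msmo1 and 3.55 for Idi1, which kept them. The genotypes and the 2 sets of libraries cannot be told apart in these terms.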

How the results depend on the processing

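No estimate of a called member changed sign under any alternative. The number of members called in Tsc1 L-/- against control, 1 in the test reported, was 2 with DESeq2, 2 in the fit of 24 libraries, 2 with the replicate block, 0 in the fit of 2 groups and 0 with no filter. In DKO against control it was 10 with no filter. In DKO against Cpt2 L-/- it was 5 with DESeq2, 1 in the fit of 24 libraries (Fdps, as higher, with the 3 lower calls lost) and 13 in the fit of 2 groups. The Tsc1 by Cpt2 interaction had 5 with DESeq2. In Cpt2 L-/- Ppara KO it was 13 in the fit of 2 groups and 3 with no filter against Cpt2 L-/-, and 1 in the fit of 2 groups against Ppara KO. The cause was not tested. RLE factors added 1 call over all comparisons and removed none. Leaving out 1 library gave 0 to 6 calls in Tsc1 L-/-, 12 to 18 in Cpt2 L-/-, 9 to 19 in DKO and 9 to 16 in Ppara KO against control. It gave 2 to 3 in DKO against Cpt2 L-/-, 6 to 8 against Tsc1 L-/-, 0 to 5 for the Tsc1 by Cpt2 interaction, 1 to 7 in Cpt2 L-/- Ppara KO against Cpt2 L-/-, 3 to 10 against Ppara KO and 11 to 17 for the Cpt2 by Ppara interaction. Same-numbered libraries of different groups shared only a number: the correlation of their deviations was -0.26 to 0.23 over 60 pairs, and 10 were above 0.1. With the replicate block, 13 members were called in each of Cpt2 L-/-, DKO and Ppara KO against control. The counts of promoters with the sterol element, CCAAT and GGGCGG were 1, 22 and 21 in the window of 300 bases.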
